A study of Mus musculus with 12 samples.

Results

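The 30 genes described here encode enzymes and carriers of fatty acid oxidation and ketone body formation. They form a list of mouse symbols matched to the Ensembl identifiers of the count table; the rule uses no measured value, but the list was drawn up with earlier results of these data known. All 30 were among the 28030 genes of the table, and 29 had enough counts to be tested with 12086 genes in all. Eci1, a mitochondrial enoyl-CoA isomerase, was the exception, with 0 to 5.47 estimated counts in a library. Whether its transcripts were in the authors' index is not given in the sources used here, so these values cannot be read as its expression.

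Liver cells burn fatty acids when food is withheld. A fatty acid is first joined to coenzyme A, then carried into mitochondria as a carnitine ester, and there shortened in repeated rounds of dehydrogenation, hydration, second dehydrogenation and thiolysis. Electrons leave through the electron transfer flavoprotein, and much of the acetyl-CoA becomes ketone bodies that are released for other organs. Very long chains are shortened in peroxisomes first, and unsaturated chains need extra isomerases and reductases. Many of these genes are known targets of the nuclear receptor PPARalpha, and fatty acid oxidation in liver is classically placed near the portal tract.

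RNA was sequenced from hepatocytes of wild-type female mice of 12 weeks on normal chow. The 4 groups of 3 libraries were fed pericentral (fed PC), fed periportal (fed PP), fasted PC and fasted PP. Digitonin, named in the labels, is a detergent that opens the hepatocytes it reaches first, so the opposite zone survives. On each of 3 training days all mice went 16 h without food and then had food for 8 h. On the last day the fed groups ate for 4 h and drank 20% sucrose, whereas the fasted groups then had neither for 24 h. The libraries of a group are labelled biological replicates, and the p-values measure the spread between them.

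Libraries held 16245846 to 27449412 estimated counts. The summed level of 11 pericentral markers was 16067 to 17305 CPM (counts scaled to a common library size) in fed PC and 1080 to 2145 in fed PP, and 14009 to 24777 in fasted PC and 376 to 1201 in fasted PP. The summed level of 12 periportal markers was 2999.6 to 3701 CPM in fed PC and 9239 to 11592 in fed PP, and it was 7755 to 9614 in fasted PC and 16586 to 22750.0 in fasted PP. Much of the difference between fed and fasted sums was Pck1, a gluconeogenic gene, at 45.1 to 258 CPM in fed PC and 4382 to 4672 in fasted PC. Without Pck1 the other 11 markers summed to 2741 to 3656 CPM in fed PC and 3084 to 5232 in fasted PC, and to 7967 to 11260.0 in fed PP and 10160.0 to 13261 in fasted PP, so fed and fasted ranges overlapped. The part of these markers in the results below was not tested. Markers of Kupffer and other immune cells reached at most 12.9 CPM in sum over 13 genes, those of endothelial cells 22.2 over 8 genes, and those of stellate cells 16.3 over 8 genes. The summed level of 6 cholangiocyte markers was 23.7 to 27.9 CPM in fed PC and 36.1 to 47.4 in fed PP. In fasted libraries that sum was 13.5 to 25.1 in PC and 33.7 to 37.3 in PP. The summed level of 5 erythroid genes reached 441 CPM, in a fasted PC library. Fasted PC replicate 1 stood apart in some markers of both zones and not in others. Its pericentral Glul was at 172 CPM against 3639 and 2353 in the other fasted PC libraries, Oat at 452 against 2309 and 1971, and Slc1a2 at 13.1 against 634 and 552. Its periportal Hal was at 579 CPM against 69.9 and 109, and Gls2 at 386 against 65.4 and 99.7. Other markers of this library did not follow, such as pericentral Cyp7a1 (337 CPM against 341 and 146) and periportal Cdh1 (5.46 against 5.96 and 6.76). Without this library, 8 members instead of 10 were called with fasting in PC, and 5 instead of 4 between the zones of fasted mice. All genes called were 2486 instead of 2582, and 1005 instead of 774. In these bulk libraries a lower share of cells expressing a gene and less RNA per cell cannot be told apart.

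Several of the enzymes are encoded by close gene pairs, and the sequences show how far reads can be told apart. The pairs Acaa1a and Acaa1b, Acot1 and Acot2, and Eci2 and Eci3 were aligned over their coding sequences in the GENCODE M21 annotation of GRCm38. The 120 bases shown begin at the first coding base of Acaa1a, Acaa1b and Eci3, at base 229 of Eci2, at base 5 of Acot1 and at base 128 of Acot2. The capitals mark the bases that differ within the pair.

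Acaa1a: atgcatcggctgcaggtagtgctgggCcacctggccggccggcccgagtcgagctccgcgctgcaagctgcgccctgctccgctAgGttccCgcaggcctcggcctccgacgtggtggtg
Acaa1b: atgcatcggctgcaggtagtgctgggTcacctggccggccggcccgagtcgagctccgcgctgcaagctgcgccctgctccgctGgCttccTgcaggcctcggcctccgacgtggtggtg
Acot1: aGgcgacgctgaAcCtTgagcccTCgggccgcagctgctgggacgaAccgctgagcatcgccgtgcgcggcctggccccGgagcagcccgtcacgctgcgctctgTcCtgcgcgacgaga
Acot2: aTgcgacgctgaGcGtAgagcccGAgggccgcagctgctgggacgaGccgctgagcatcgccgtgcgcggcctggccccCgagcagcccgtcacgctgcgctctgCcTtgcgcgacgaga
Eci2: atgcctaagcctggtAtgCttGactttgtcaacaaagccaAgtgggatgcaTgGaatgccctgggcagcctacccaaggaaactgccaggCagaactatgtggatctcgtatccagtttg
Eci3: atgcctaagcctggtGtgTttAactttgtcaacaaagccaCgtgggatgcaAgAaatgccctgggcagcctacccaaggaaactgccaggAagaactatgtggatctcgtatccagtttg

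The peroxisomal thiolase genes Acaa1a (chr9:119339676-119350299) and Acaa1b (chr9:119148023-119157093) were identical at 96.5% of 1275 aligned positions, and 4 bases differed in the window above. The thioesterase genes Acot1 (chr12:84009490-84018371) and Acot2 (chr12:83987861-83993873) were identical at 95.5% of 1239 positions, with 10 differences in the window. The isomerase genes Eci2 (chr13:34977748-35027096) and Eci3 (chr13:34946614-34963810) were identical at 90.2% of 941 positions, with 7 differences in the window. Of all 31-base stretches of Acaa1b transcripts, 40.0% also occurred in Acaa1a. That share was 29.9% for Acot2 with Acot1 and 14.8% for Eci3 with Eci2. Estimated counts divide such shared reads by a model, so the split within a pair is uncertain, most of all for Acaa1b. Etfb also shared 49.9% of its stretches with other genes, and Acadvl shared 33.2% with the overlapping gene Dvl2, from which unstranded libraries cannot separate it.

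In the plot of all libraries, most enzymes were higher in fasted than in fed hepatocytes, and fasted PC stood highest. The 30 genes together took 0.900% ± 0.115 of the counts (SD, n = 3) in fed PC, 0.777% ± 0.174 in fed PP, 1.26% ± 0.0768 in fasted PC and 0.935% ± 0.0494 in fasted PP. The 3 fasted PC libraries (1.22%, 1.21% and 1.35%) lay above the other 9, whose highest was fed PC replicate 1 at 1.03%. The fasted PP range of 0.896% to 0.991% overlapped the fed PP range of 0.606% to 0.955%.

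**Figure D1:**
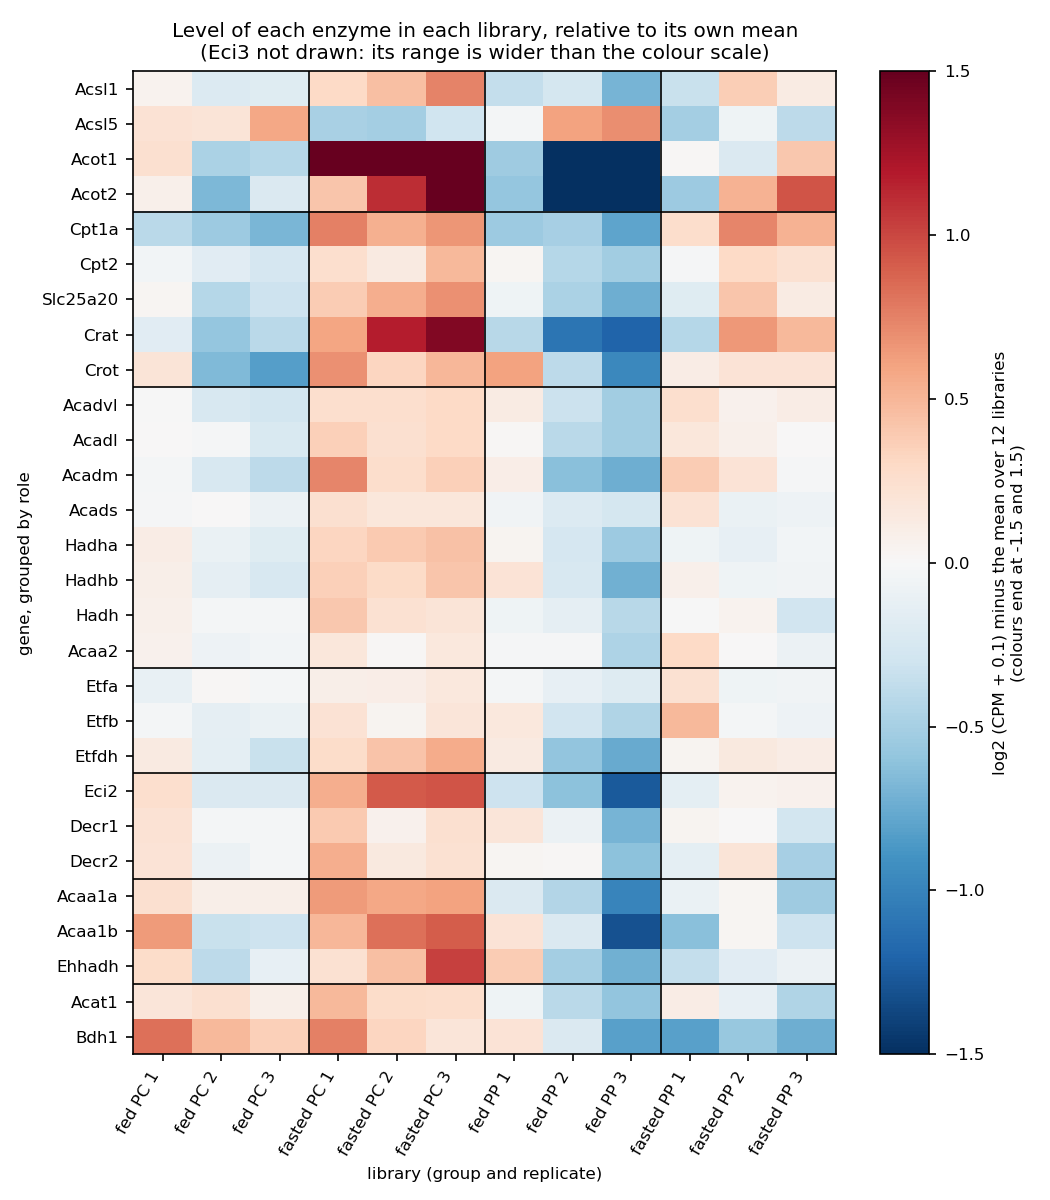
Each row is an enzyme gene and each column a library. Colour gives log2 (CPM + 0.1) minus the gene's mean over the 12 libraries, ending at -1.5 and 1.5. Black lines separate roles and groups. Eci1, which was not tested, and Eci3, whose range exceeds the scale, are not drawn. The fasted PC columns are red in most rows, Acsl5 is blue in fasted libraries, and fed replicate 1 of either zone is redder than the other fed libraries.

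The fed libraries differed among themselves in this pathway. Fed PC replicate 1 was the highest fed PC library for 25 of 29 tested members, against 36.1% of all tested genes. Fed PP replicate 1 was the highest fed PP library for 24 of 29, against 34.8% of all genes, and fed PP replicate 3 the lowest for 27 of 29, against 35.6%. Acaca, acetyl-CoA carboxylase, which makes the malonyl-CoA that blocks carnitine entry, was lowest in the same fed libraries. It stood at 472 CPM in fed PC replicate 1 against 611 and 930.4 in the other fed PC libraries, and at 413 in fed PP replicate 1 against 808 and 1120.0. On the first principal component of all genes, which held 30.2% of the variance, fed replicate 1 was also the fed library nearest to the fasted ones in each zone (-37.7 against -45.9 and -51.0 in PC, and -14.3 against -21.4 and -24.9 in PP). How much each fed mouse had eaten is not given in the sources used here. For the fasting and zone comparisons, the total of members called is therefore given also without both fed replicates 1. This alternative was chosen after the data were seen, partly on the members' own levels. Leaving out fed libraries in which members were highest in itself raises their fasting fold changes. Its counts are thus no further support for a fasting response.

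Fasting raised 9 and lowered 1 of the 29 members in PC. The model was edgeR's quasi-likelihood test with Benjamini-Hochberg adjustment over all 12086 genes, and a gene was called at an adjusted p under 0.05. Of all tested genes, 11.1% were called higher and 10.2% lower in this comparison. The 9 that rose were Acsl1, Acot1, Acot2, Cpt1a, Slc25a20, Crat, Acadm, Hadha and Eci2, and Acsl5 fell. The median log2 fold change of the members was 0.444 and that of all genes 0.0042. In PP, 3 members rose (Cpt1a, Crat and Eci2) and 1 fell (Acsl5), where 8.39% of all genes were called higher and 9.5% lower, with a member median of 0.279 (0.522 without fed PP replicate 1 and 0.148 without fed PP replicate 3). The share of members called was thus above the background for rises in PC and near it in PP. Fold changes were above 0 for 26 of 29 members in PC and for 25 of 29 in PP.

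The call of a member in PC but not in PP did not amount to a difference between the zones. The difference of the fasting effect between PC and PP was called for 0 of 29 members in edgeR, DESeq2 and limma-voom. Of all genes, edgeR called 0% and limma-voom 0, while DESeq2 called 11. At an unadjusted p under 0.05 in edgeR, 465 genes and 0 members passed. The difference was above 0, larger in PC, for 24 of 29 members and for 52.3% of all genes. Its member median was 0.112 on the log2 scale, which turned to -0.058 without fed PP replicate 1 and became 0.242 without fed PP replicate 3. It also became 0.207 when fed PC replicate 1 was left out, 0.193 when fasted PP replicate 2 was, and 0.055 when fasted PP replicate 3 was. The 95% intervals of the 29 differences ran from -1.71 at the lowest to 3.10 at the highest. Averaged over PC and PP, fasting raised 15 members and lowered 1, where 17.8% of all genes were called higher and 17.5% lower. Without both fed replicates 1, the members called were 17 in PC, 12 in PP and 20 in the average. In these comparisons 17%, 13.4% and 30.1% of all genes were called in either direction. The choice of these libraries rested partly on the members' own levels, which favours such a rise.

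**Figure D2:**
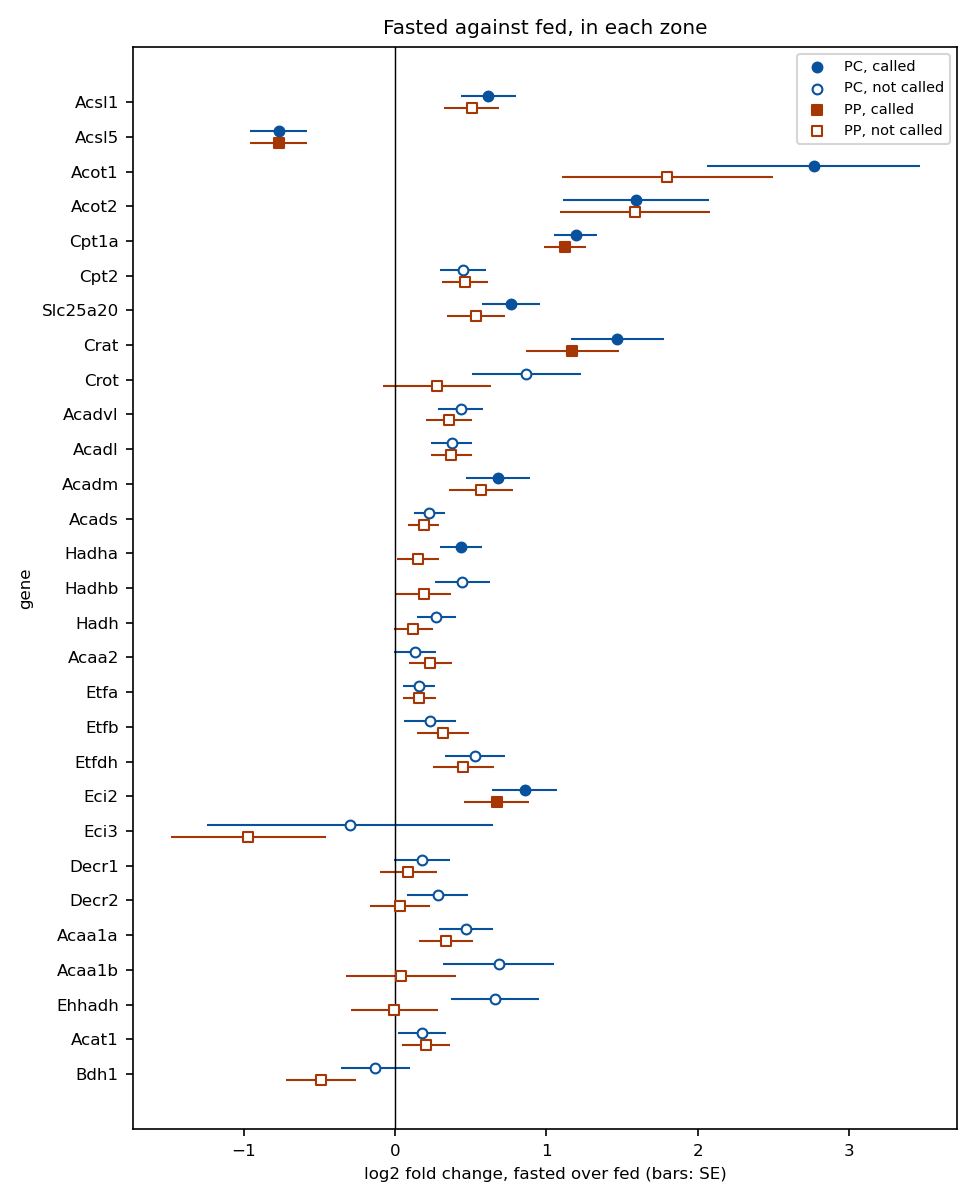
Log2 fold change of fasted over fed for the 29 tested members, in PC (circles) and PP (squares), with SE bars. Filled symbols passed the adjusted p threshold. Acot1 has the highest value in PC (2.77), Acsl5 lies at -0.77 in both zones, and no member differed between the zones by the test of the difference.

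The enzymes of activation and thioester handling held the largest fold changes with fasting, and 3 of 4 rose in PC. Acsl1 joins long-chain fatty acids to coenzyme A and is a main liver form. Its level was 787, 658 and 671 CPM in fed PC and 936, 1043 and 1268 in fasted PC. It was 595, 632 and 469 in fed PP and 601, 981 and 824 in fasted PP. All fasted PC libraries lay above the fed PC ones, while the PP groups overlapped in 1 library each. Fasting gave Acsl1 a log2 fold change of 0.62 ± 0.18 in PC (SE; edgeR adjusted p = 0.0308) and 0.51 ± 0.18 in PP (0.0766). The PC call was lost with unscaled totals and without any 1 of fed or fasted PC replicates 2 and 3.

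Acsl5, a related synthetase, went the other way. Its level was 328, 322 and 421 CPM in fed PC and 276, 429 and 459 in fed PP. After fasting it was 202, 198 and 229.6 in PC and 198, 270.4 and 215 in PP. No fasted library reached a fed library of its own zone. Acsl5 had a log2 fold change of -0.77 ± 0.19 in PC (edgeR adjusted p = 0.0123) and -0.77 ± 0.19 in PP (0.0146). The 2 synthetases thus changed in opposite directions in PC. The PC call of Acsl5 ended without fed PC replicate 3, and the PP call without any 1 of fed PP replicates 2 and 3 and fasted PP replicates 1 and 3.

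Acot1 encodes a cytosolic thioesterase that releases free fatty acids from acyl-CoA, and Acot2 its mitochondrial relative. Acot1 stood at 49.5, 29.99 and 31.01 CPM in fed PC and 132, 250.3 and 369 in fasted PC. In PP it stood at 28.7, 5.72 and 3.54 in fed and 42.2, 35.9 and 55.2 in fasted libraries. Fasted libraries were higher than every fed library of their zone, and fed PP replicate 1 was far above the other fed PP libraries. For Acot1 the log2 fold change was 2.77 ± 0.70 in PC (edgeR adjusted p = 0.0211) and 1.80 ± 0.70 in PP (0.109). Without fed PP replicate 1 the Acot1 change in PP was 3.27 with an adjusted p of 0.00316. The PC call of Acot1 was lost with no filter on low counts and when fed PC replicate 2, fed PC replicate 3 or fasted PC replicate 3 was removed.

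Acot2 had lower levels and a like pattern. It stood at 14.2, 8.38 and 11.6 CPM in fed PC, 17.98, 29.2 and 56.1 in fasted PC, 8.95, 4.50 and 4.63 in fed PP, and 9.18, 19.3 and 25.9 in fasted PP. The fasted libraries were above the fed ones in each zone, by a narrow gap in PP. Its log2 fold change was 1.59 ± 0.48 in PC (edgeR adjusted p = 0.0396) and 1.58 ± 0.50 in PP (0.0522). The PC call was lost in 8 of 12 fits that left out a library, and averaged over the zones the change was 1.59 ± 0.35 (0.00526). The 2 genes share reads, so how the change divides between them is uncertain.

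In the carnitine shuttle 3 of 5 members rose in PC and 2 in PP. Cpt1a, carnitine palmitoyltransferase of the outer mitochondrial membrane and the main control point of entry, stood at 309, 279 and 254 CPM in fed PC and at 281, 289.8 and 236 in fed PP. In fasted libraries it stood at 689.8, 590.4 and 644 in PC and at 491, 678 and 586 in PP. The lowest fasted library was well above the highest fed library. Cpt1a had a log2 fold change of 1.19 ± 0.14 in PC (edgeR adjusted p = 0.000186) and 1.12 ± 0.14 in PP (0.00034). Cpt1a was called in both zones in each of the 12 fits that left out a library and under all other alternatives run. Its zones did not differ detectably, with an interval of the PC over PP log2 fold change of -0.24 to 0.36 in fed mice and -0.17 to 0.43 in fasted mice.

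Crat, carnitine acetyltransferase, which exchanges short acyl groups between carnitine and coenzyme A, also rose. It stood at 69.2, 51.9 and 58.6 CPM in fed PC and 118, 176 and 204 in fasted PC. In PP it stood at 58.4, 36.4 and 33.7 in fed and 57.8, 122 and 109 in fasted libraries. The PC groups did not overlap, and in PP the lowest fasted library fell just under fed replicate 1. Crat had a log2 fold change of 1.47 ± 0.31 in PC (edgeR adjusted p = 0.00668) and 1.17 ± 0.31 in PP (0.0234). The PC call held in every fit that left out a library, and the PP call was lost in several fits, among them those without any 1 of fed and fasted PP replicates 2 and 3.

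Slc25a20, the carrier that moves acylcarnitine across the inner membrane, stood at 163, 119 and 129 CPM in fed PC and 208, 232 and 257 in fasted PC. In PP it stood at 153, 114 and 96.2 in fed and 140.5, 213 and 174 in fasted libraries. The PC groups were apart, and the PP groups overlapped through fed replicate 1 and fasted replicate 1. On the log2 scale the change was 0.77 ± 0.19 in PC (edgeR adjusted p = 0.0136) and 0.53 ± 0.19 in PP (0.0733). The PC call of Slc25a20 ended when fed PC replicate 2, fed PC replicate 3 or fasted PC replicate 3 was removed.

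Cpt2, which returns the acyl group to coenzyme A inside the mitochondrion, was called only in the average. It stood at 119.6, 109 and 103 CPM in fed PC, 147, 135 and 172 in fasted PC, 126, 91.2 and 86.0 in fed PP, and 122, 152 and 144 in fasted PP. The PC groups were apart and the PP groups overlapped through replicate 1. The log2 fold change of Cpt2 was 0.45 ± 0.15 in PC (edgeR adjusted p = 0.051), 0.46 ± 0.15 in PP (0.053) and 0.46 ± 0.11 averaged (0.00543). Crot, the peroxisomal carnitine octanoyltransferase, was not called. It stood at 435, 239.6 and 215 CPM in fed PC and at 577, 289.5 and 195 in fed PP. Fed PC replicate 1 lay below the fasted PC libraries (476 to 609), and fed PP replicate 1 above the fasted PP ones (411 to 439). Without both fed replicates 1, the PC change of Crot was 1.25 with an edgeR adjusted p of 0.00153, against 0.87 ± 0.36 (0.115) with them. Those libraries were left out partly because members were high in them, so the lower p is no further support.

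**Figure D3:**
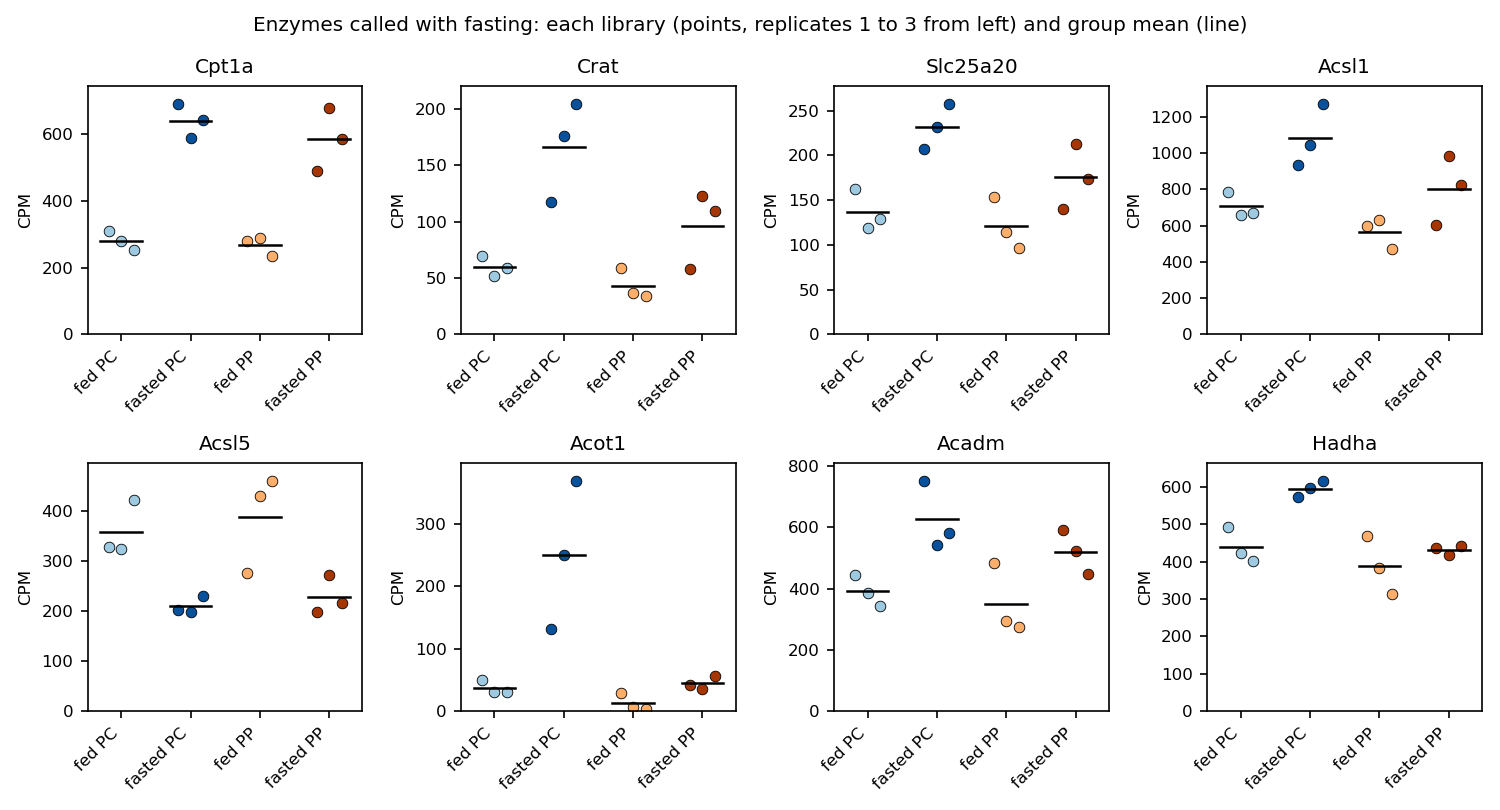
CPM in each library for 8 members called with fasting. Points are replicates 1 to 3 from left, lines are group means, and the axes start at 0. Cpt1a separates fed from fasted in both zones, Acsl5 is lower in fasted libraries, and Acot1 reaches 369 CPM in fasted PC only.

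Changes in the mitochondrial spiral were smaller. Of its 8 genes, 2 were called higher in PC and 0 in PP, 5 were called in the average, and no fold change was below 0. The PC log2 fold changes ran from 0.13 to 0.68, with a median of 0.404, against 0.867 in the carnitine shuttle. Acadm, medium-chain acyl-CoA dehydrogenase, had the largest. It stood at 445, 384 and 344 CPM in fed PC and 752, 544 and 583 in fasted PC, and at 484, 294 and 273 in fed PP and 590.4, 523 and 447 in fasted PP. The PC groups were apart, and in PP fed replicate 1 reached into the fasted range. The log2 fold change of Acadm was 0.68 ± 0.21 in PC (edgeR adjusted p = 0.0373) and 0.57 ± 0.21 in PP (0.082). The PC call ended in 6 of 12 fits that left out a library and with unscaled totals.

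Hadha and Hadhb encode the subunits of the trifunctional protein, which carries out the last steps of the spiral on long chains. Hadha stood at 494, 424 and 402 CPM in fed PC and 572, 598 and 616 in fasted PC, and at 468, 384 and 313 in fed PP and 435, 418 and 443 in fasted PP. All fasted PC libraries were above all others. The log2 fold change of Hadha was 0.44 ± 0.14 in PC (edgeR adjusted p = 0.041, lost in 9 of 12 fits that left out a library) and 0.15 ± 0.14 in PP (0.489). Hadhb had nearly the same fold changes, 0.44 ± 0.18 in PC (0.104) and 0.19 ± 0.18 in PP (0.519), and was not called. The genes are divergent neighbours on chromosome 5, with 85 bases between their annotated bodies (chr5:30155163-30155247, GRCm38). That interval is shown on the strand of Hadhb because it lies upstream of both genes, and capitals mark the 68 bases within 250 bases of both RefSeq starts.

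Hadha-Hadhb interval: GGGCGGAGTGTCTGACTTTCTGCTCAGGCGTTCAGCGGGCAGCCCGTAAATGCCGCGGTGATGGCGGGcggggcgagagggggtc

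The other calls of the spiral appeared in the average over the zones. Acadl, long-chain acyl-CoA dehydrogenase, rose by 0.37 ± 0.10 (edgeR adjusted p = 0.00874). Acadvl, the very-long-chain enzyme, rose by 0.40 ± 0.11 (0.0115). Acads, the short-chain enzyme, rose by 0.21 ± 0.07 (0.0419), a call lost in 9 of 12 fits that left out a library. Hadh, the short-chain hydroxyacyl-CoA dehydrogenase, and Acaa2, the mitochondrial thiolase, were not called. Of the electron transfer genes, Etfdh, the ubiquinone oxidoreductase, rose by 0.49 ± 0.14 in the average (0.0176, lost without fed PP replicate 2), and Etfa and Etfb were not called.

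The enzymes for unsaturated chains held the largest fold change between the zones. Eci2, an enoyl-CoA isomerase of peroxisomes and mitochondria, stood at 287, 206 and 207 CPM in fed PC and 351, 455 and 463 in fasted PC. In PP it stood at 194, 157 and 100.2 in fed and 216, 249.7 and 251 in fasted libraries. Every fasted library was above every fed library of its zone, and every PC library above every PP library of its feeding state. Fasting changed Eci2 by 0.86 ± 0.22 in PC (edgeR adjusted p = 0.0141) and 0.67 ± 0.22 in PP (0.0492). The PP call was lost in 9 of 12 fits that left out a library, and the PC call in 3. PC exceeded PP by 0.64 ± 0.22 in fed (0.134), 0.82 ± 0.22 in fasted (0.0422) and 0.73 ± 0.15 averaged (0.00697). The zone call in fasted mice was lost in 8 of the 12 fits and in limma-voom.

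Eci3, a peroxisomal isomerase next to Eci2 on the same strand with 13937 bases between the gene bodies, had the reverse zonation. It was at 0.462, 0.104 and 0.245 CPM in fed PC and 7.38, 17.6 and 5.93 in fed PP. In fasted libraries it was at 0.258, 0.0602 and 0.333 in PC and 3.81, 8.88 and 3.05 in PP. The PC values rest on 1.00 to 13.0 estimated counts per library and the PP values on 67.0 to 374, and no PC library reached a PP library. The log2 fold change of PC over PP was -5.24 ± 0.68 in fed (edgeR adjusted p = 0.00113) and -4.57 ± 0.73 in fasted mice (0.00346). The call held in every fit that left out a library, and limma-voom did not call it in fasted mice (adjusted p = 0.0715). Eci3 was not called with fasting, at -0.97 ± 0.51 in PP (0.223). Decr1 and Decr2, the mitochondrial and peroxisomal dienoyl-CoA reductases, were called in no comparison.

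Zone calls were counted over all 29 tested members. In fed mice, 0 members were higher in PC and 1, Eci3, was lower, where 2.24% of all genes were called higher and 2.47% lower. In fasted mice, 3 were higher in PC (Bdh1, Acaa1a and Eci2) and Eci3 was lower, where 3.35% of all genes were called higher and 3.05% lower. Averaged over feeding, 6 were higher (Bdh1, Acaa1a, Eci2, Acat1, Acot1 and Hadha) and Eci3 was lower, where 6.47% of all genes were called higher and 6.5% lower. The share of members called higher in PC was above that of all genes in fasted mice and in the average. In fasted mice, 0 members were called higher in PC without fasted PP replicate 1 or without fasted PP replicate 3. The direction of the fold changes was mostly pericentral, with values above 0 for 26 of 29 members in fed, 26 in fasted and 27 in the averaged comparison. The member medians were 0.181, 0.352 and 0.277, against -0.0144, -0.0015 and -0.0093 for all genes. In fed mice the member median became 0.389 when fed PP replicate 1 was left out, 0.1 when fed PC replicate 1 was, and 0.052 when fed PP replicate 3 was. Without both fed replicates 1, the members called were 2 in fed, 7 in fasted and 9 in the averaged comparison, where 2.29%, 5.17% and 9.56% of all genes were called in either direction.

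**Figure D4:**
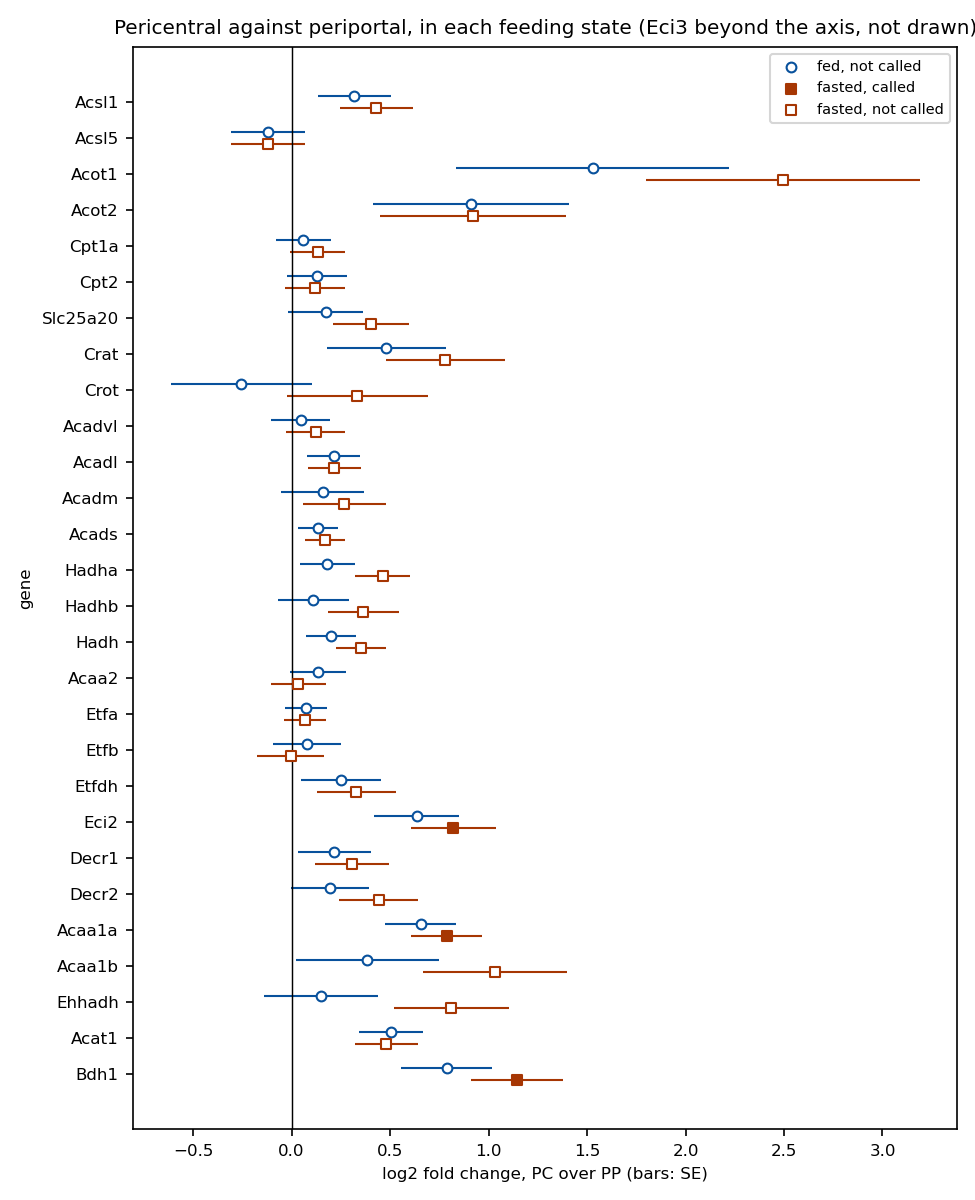
Log2 fold change of PC over PP for 28 tested members, in fed (circles) and fasted (squares) mice, with SE bars. Eci3, at -5.24 and -4.57, lies beyond the axis and is not drawn. Most symbols lie right of 0, and 3 drawn members passed the threshold, all in fasted mice.

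The ketone body enzymes were higher in PC and were not called with fasting. Bdh1, the mitochondrial dehydrogenase that forms 3-hydroxybutyrate, stood at 394, 310.5 and 284 CPM in fed PC and 255, 191 and 126 in fed PP. In fasted libraries it stood at 373, 278 and 252 in PC and 126, 149.6 and 133 in PP. PC libraries were above PP libraries of the same feeding state throughout. The log2 fold change of PC over PP was 0.79 ± 0.23 in fed (edgeR adjusted p = 0.0786), 1.14 ± 0.23 in fasted (0.0118) and 0.96 ± 0.16 averaged (0.00193). The fasted call of Bdh1 ended without fasted PP replicate 1 or 3. Its fasting change was -0.13 ± 0.23 in PC, with an interval of -0.63 to 0.37, and -0.49 in PP, with an interval of -0.99 to 0.01.

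Acat1, the mitochondrial thiolase that condenses acetyl-CoA, stood at 484, 504 and 453 CPM in fed PC and 408, 322 and 283 in fed PP, and at 601, 516 and 515 in fasted PC and 463, 394 and 312 in fasted PP. The zones were apart in each feeding state. Fasting changed Acat1 by 0.18 ± 0.16 in PC (edgeR adjusted p = 0.464) and 0.20 ± 0.16 in PP (0.419). PC exceeded PP by 0.51 ± 0.16 in fed (edgeR adjusted p = 0.107), 0.48 ± 0.16 in fasted (0.111) and 0.49 ± 0.11 averaged (0.0119). The averaged calls of Bdh1, Acat1, Acaa1a, Eci2 and Eci3 held in every fit that left out a library. Those of Acot1 and Hadha were lost in 5 and 11 of the 12.

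Of the peroxisomal members, Acaa1a, a thiolase, stood at 218, 195 and 196 CPM in fed PC and 158, 136 and 92.7 in fed PP, and at 288, 276 and 279.6 in fasted PC and 172, 189 and 128 in fasted PP. No PP library reached a PC library of its feeding state. PC exceeded PP by 0.66 ± 0.18 in fed (edgeR adjusted p = 0.0601) and 0.79 ± 0.18 in fasted mice (0.0215). The fasted call of Acaa1a was lost in 4 of 12 fits that left out a library, each a fasted one (PC replicates 2 and 3, PP replicates 1 and 3). Averaged over the zones, fasting raised Acaa1a by 0.40 ± 0.13 (0.026), a call lost in 4 of 12 such fits (fed PC replicates 2 and 3, fasted PP replicates 1 and 2) and with unscaled totals. Acaa1b, its near copy, and Ehhadh, the peroxisomal bifunctional enzyme, were not called. Ehhadh stood at 697, 438 and 528 CPM in fed PC, 748, 403 and 349 in fed PP, 672, 786 and 1168 in fasted PC, and 447, 510.0 and 538 in fasted PP. Its fasting change was 0.66 ± 0.29 in PC (0.133) and -0.00 in PP (0.995), and the difference between the zones was 0.66 with an interval of -0.23 to 1.56.

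**Figure D5:**
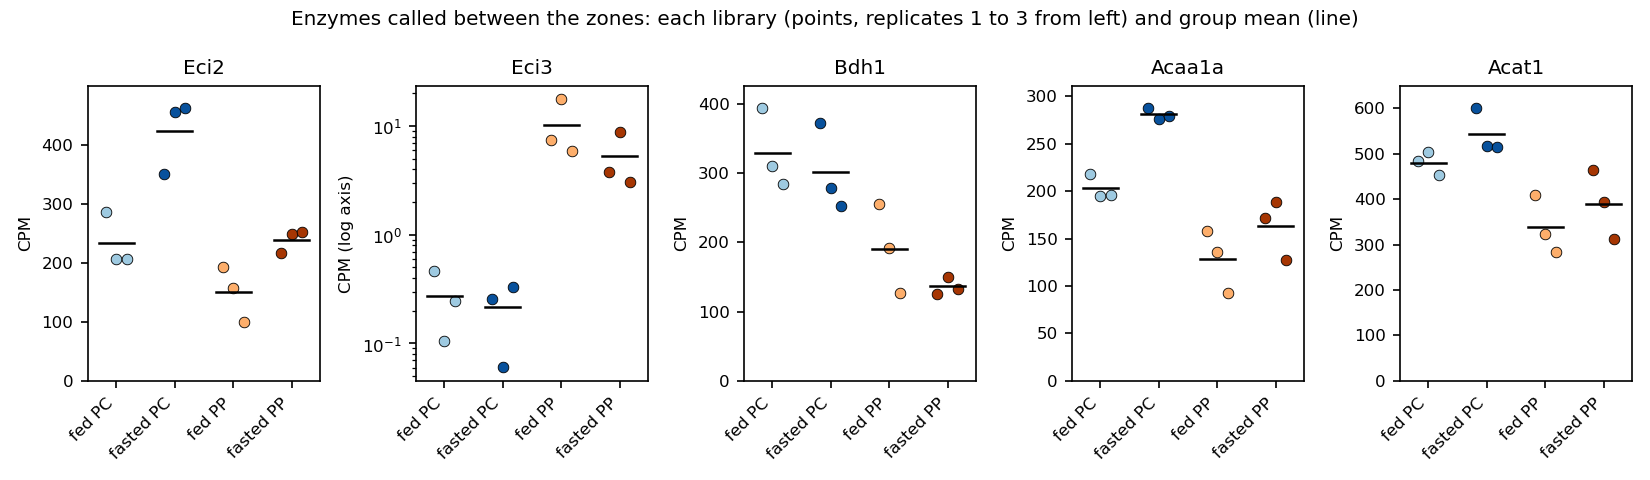
CPM in each library for 5 members called between the zones. Points are replicates 1 to 3 from left and lines are group means. The Eci3 axis is logarithmic and the others start at 0. Eci2, Bdh1, Acaa1a and Acat1 are higher in PC, and Eci3 is below 0.5 CPM in PC and above 3 CPM in PP.

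Compared between genes per kilobase of merged exons, Acaa2 (506 ± 25.1 CPM per kilobase) and Acaa1b (449 ± 186) were the highest members in fed PC. These did not differ beyond their spread. Acot2 (5.19 ± 1.34) and Eci3 (0.191 ± 0.127) were the lowest tested members. In fasted PC, Acaa1b (722 ± 107) and Acaa2 (555 ± 33.4) led. The order depends on the length used: by the median annotated transcript, Acat1 led in fed PC with 960.5 CPM per kilobase against 759 for Acaa2.

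The other genes of the pathway were counted in the same fits. With fasting, 11.1% of all tested genes were called higher and 10.2% lower in PC, and 8.39% and 9.5% in PP. Of 14 tested genes of fatty acid entry and supply, 3 rose and 4 fell in each zone. Those that rose were Mlycd, malonyl-CoA decarboxylase (0.52 ± 0.09 in PC and 0.55 ± 0.09 in PP), Slc22a5, a carnitine importer, and Cpt1b. Acaca fell by 2.93 ± 0.38 in PC (edgeR adjusted p = 0.000521) and 2.61 ± 0.37 in PP (0.00112), with Acacb, Acsl3 and Acsl4. Of 12 further mitochondrial enzymes, 0 were called with fasting in either zone. Averaged over the zones, 1 of them rose and 1 fell, where 17.8% of all genes were called higher and 17.5% lower. Of 14 regulators and reporters, 6 rose in PC and 9 in PP, and 0 fell. Angptl4, a secreted lipase inhibitor and PPARalpha target, rose by 2.99 ± 0.32 in PC and 3.23 ± 0.32 in PP. Ppargc1a, a coactivator of oxidative genes, rose by 1.48 ± 0.40 and 1.59 ± 0.39.

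Of 8 tested genes of ketone formation and handling outside the 30, 0 rose and 2 fell in each zone. Of all genes, 10.2% were called lower in PC and 9.5% in PP. Averaged over the zones, 2 of the 8 rose and 3 fell, where 17.8% of all genes were called higher and 17.5% lower. Aacs, which uses acetoacetate for lipid synthesis, fell by 3.83 ± 0.45 in PC and 3.52 ± 0.44 in PP. Slc16a6, a ketone body exporter, fell by 1.29 ± 0.28 in PP (edgeR adjusted p = 0.00745) and also fell in PC, and was lower in PC than in PP by 2.29 ± 0.29 in fed mice. Bdh2, a cytosolic dehydrogenase, was also lower in PC, with a log2 fold change of -3.13 ± 0.49 in fed (0.00412) and -2.60 ± 0.48 in fasted mice (0.00991), opposite to Bdh1.

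Of 22 other genes listed under peroxisomal oxidation, 6 rose and 2 fell in PC, and 5 rose and 2 fell in PP. Of all genes, 11.1% were called higher and 10.2% lower in PC, and 8.39% and 9.5% in PP. The falls were thus near the share of all genes. Acot12, placed in this list although it is a cytosolic acetyl-CoA thioesterase, rose by 0.88 ± 0.14 in PC and 0.78 ± 0.14 in PP. Nudt7, a coenzyme A hydrolase, fell by 1.75 ± 0.22 in PC and 1.68 ± 0.22 in PP. In fasted mice 3 of the 22 were higher in PC and 1 was lower, where 3.35% of all genes were called higher and 3.05% lower. Of 8 genes of omega oxidation, 0 were called with fasting in either zone, with median log2 fold changes of 0.293 in PC and 0.523 in PP. Averaged over the zones, 1 of the 8 was called higher, where 17.8% of all genes were. Aldh3a2 and Adh4 were higher in PC in both feeding states, where 2.24% of all genes were called higher in fed and 3.35% in fasted mice. Aldh3a2, fatty aldehyde dehydrogenase, was higher by 1.81 ± 0.26 in fed and 1.82 ± 0.26 in fasted mice.

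RefSeq windows of the 250 bases before the start (GRCm38.p6) were found for 26 of the 30 genes. A direct repeat of AGGTCA with 1 base between the copies, the element bound by PPARalpha with its partner RXR, was searched on both strands with at most 2 mismatches. It occurred in 1 of the 26 genes (3.85%), Etfa, which was 1 of their 28 windows. Of all 32851 windows, 3.24% held it. The first percentage counts genes and the second counts windows. Sites outside this window or of weaker match were not searched.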

How the data were processed

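Estimated counts per gene, deposited by the authors, cover all 12 libraries. Per the submitters' processing notes, kallisto 0.46.0 and mm10 were used. For transcript annotation and gene summing, no detail is given in the sources used here, and the NEBNext Ultra kit, per the labels' protocols, does not mark strand. Estimated counts were rounded to whole numbers. Symbols and coordinates came from GENCODE M21, which held 27645 of 28030 identifiers. Genes were filtered by filterByExpr, scaled by TMM and fitted in edgeR 4.0.16 (R 4.3.3, robust quasi-likelihood) with a mean per group over all 12 libraries, 8 residual degrees of freedom, and no replicate block. CPM uses TMM-scaled library sizes, and each SE was derived as the log2 fold change over the root of F. The fit was tested on simulated data. Members, roles and gene lists were chosen with earlier results of these data known. All members were named by rule, with values in every library for those called within a zone or a feeding state and for a fixed subset. For Acadl, Acadvl, Acads and Etfdh, called only in the fasting average, no library values are given. In the other pathway lists, up to 4 called genes each were named, by lowest p; Aldh3a2, Bdh2 and Ppargc1a were partly chosen after their values were seen. Alternatives used DESeq2 1.42.0, limma-voom 3.58.1, other scalings and filters, and libraries left out.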

Additional observations from a re-analysis of the deposited data

How the results depend on the processing

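No member changed direction in any of its called comparisons under any alternative. Of 42 calls of a member in a comparison, refits without 1 library kept 397 of 504 and lost 107, and the other alternatives kept 328 of 355 and lost 27. Leaving out 1 library gave 2 to 16 members for fasting in PC (10 with all libraries), 1 to 13 for fasting in PP (4), 13 to 20 for the fasting average (16), 1 to 7 for the zone in fed mice (1), 1 to 7 for the zone in fasted mice (4), 5 to 13 for the zone average (7) and 0 for the difference between zones. The lowest counts came without fed PC replicate 3 for fasting in PC, and the highest without fed PP replicate 1 in every comparison with calls. Calls over all genes moved too. With all libraries they were 2582, 2162, 4264, 570, 774 and 1567 in the order above. Without fed PP replicate 1 they were 2583, 1874, 4075, 487, 756 and 1459. Without fed PC replicate 3, fasting in PC had 1593 calls over all genes. The cause was not tested.

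For fasting in PC, unscaled total counts gave 6 members, fitting only the groups compared 16, and leaving out both fed replicates 1 gave 17. All genes called were 2570, 2698 and 2075 in these fits, against 2582 in the main fit. For fasting in PP, the DESeq2 Wald test gave 10, no filter on low counts 2, only the groups compared 2, and leaving out both fed replicates 1 gave 12. All genes called were 2634, 1829, 1573 and 1637, against 2162 in the main fit. For the zone in fed mice, total counts gave 3, DESeq2 5, limma-voom 2, no filter 2, and leaving out both fed replicates 1 gave 2. All genes called were 618, 929, 588, 518 and 279, against 570 in the main fit. For the zone in fasted mice, total counts gave 7, DESeq2 9, and leaving out both fed replicates 1 gave 7. All genes called were 897, 1131 and 631, against 774 in the main fit. For the zone average, total counts gave 11 and DESeq2 12, with 1880 and 1964 of all genes called against 1567 in the main fit. The member median with total counts stayed above 0, at 0.369 for fasting in PC, 0.197 in PP, 0.259 for the zone in fed and 0.439 in fasted mice. The cause of these changes was not tested.

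With a replicate block the counts were 13, 4 and 19 for fasting in PC, in PP and averaged, and 4, 4 and 8 for the zone in fed, in fasted and averaged. All genes called with the block were 2696, 2223, 4340, 625, 796 and 1627 in that order. The labels do not say whether equal numbers mark pairs. Same-numbered fed libraries of PC and PP correlated at 0.269, 0.024 and 0.151 in their deviations from the group means. Differently numbered fed libraries correlated at -0.213 to 0.068. In fasted mice the values were 0.193, -0.115 and 0.094 for equal numbers and -0.27 to 0.217 for different ones. These correlations do not settle whether a pairing exists. With the block, Crat and Eci2 were not called with fasting in PP, nor Acot2 with fasting in PC, nor Eci2 between the zones of fasted mice. The PC levels of Eci3 rest on few counts, which limits their precision.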
